A study of Homo sapiens with 6 samples.

Results

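Bidirectional promoter non-coding RNAs are long transcripts without a coding sequence that begin close to the start of a protein-coding gene and run the other way along the DNA. The count table marks 73 of its 58735 genes with this gene type. The RNAs described here are the 44 of them with at least 10 reads summed over the 6 libraries, after 1 microRNA host gene (MIR4453HG) was left out by its name. The 28 others had fewer than 10 reads, and 14 of these had none. They were chosen by gene type and read total, so their being detected is no result. Just inside the limit lay AC104971.1 with 14 reads, AL132857.2 with 17 and AC131025.3 with 20, and just outside it AC006994.2 and AC125494.1 with 9 reads each. Each RNA was set beside its partner, the nearest protein-coding gene on the opposite strand.

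RNA was sequenced from T47D, an estrogen receptor-positive line of luminal breast cancer cells. Exposed cells gave 3 libraries (replicates 1 to 3), which were compared with 3 libraries of control cells. The series title names PM2.5, fine particulate matter, while the design text speaks of a treatment only, so that the exposure is taken from the title and the protocols. The protocols place RNA extraction 48 h into exposure, in the same words for both groups. The sources used here give neither the dose nor what control cells received. No genotype differs between the groups, and both are 1 cell line.

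Most mammalian promoters are rich in CpG, lack a TATA box and start RNA polymerase II in both directions. The transcript that leaves upstream usually ends early, at poly(A) signals that U1 snRNP does not mask, and the nuclear exosome degrades it. Some upstream transcripts are spliced and stable enough to be annotated as genes, which are often named for the coding gene with the ending DT or AS. Their level therefore depends both on initiation at the shared promoter and on how the transcript ends and decays.

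Of the 44 RNAs, 16 lay head-to-head with their partner without overlap, 23 overlapped it at the 5′ ends, 4 were nested with it and 1 overlapped it at the 3′ ends. The nearest annotated transcript starts of RNA and partner were a median of 116.5 bases apart, and 40 of the 44 were within 2000 bases. The 44 RNAs had 43 partners, since Z94721.3 and Z94721.1 share FGFR1OP. By distance between 5′ ends instead of between genes, 41 RNAs have the same partner. By that distance INKA2-AS1 would pair with INKA2 (417 bases), AC131025.3 with GRPEL2 (97 bases) and AL132857.2 with MBIP (77 bases). In 23 pairs the exons of RNA and partner share bases. The sources used here do not say whether counting used strand, so reads from shared bases cannot be assigned to either gene.

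**Figure D1:**
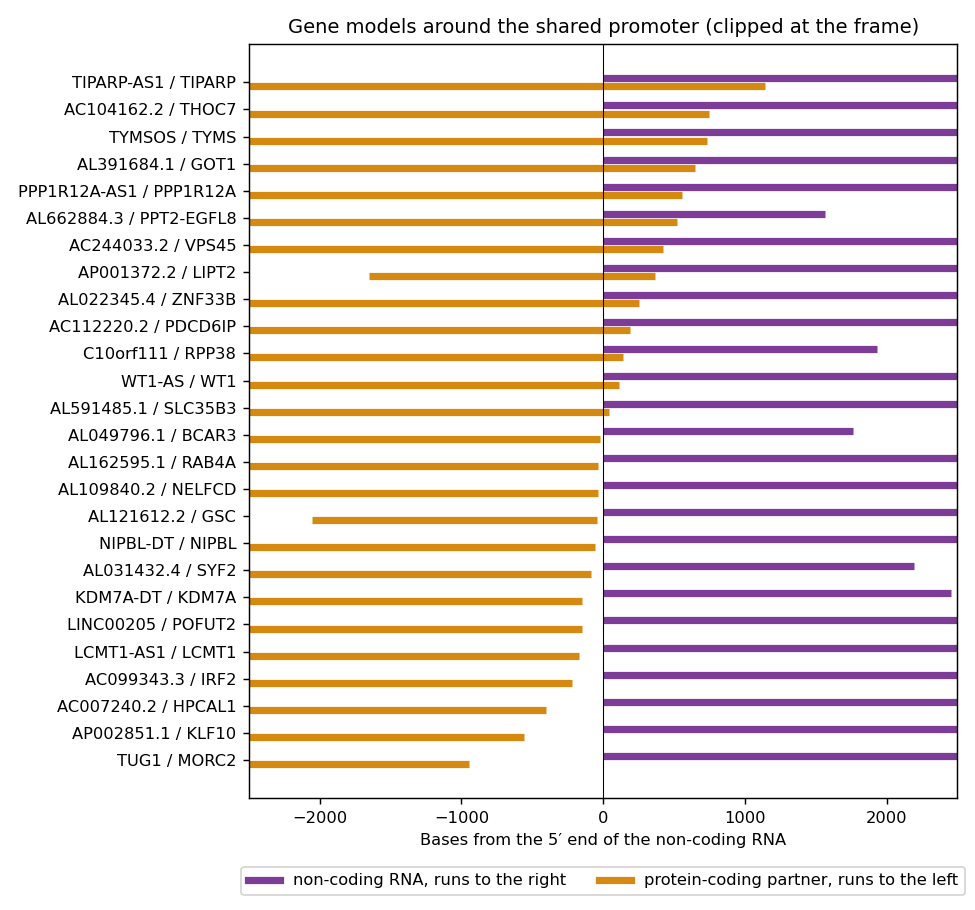
Gene models of tested non-coding RNAs and of partners with 5′ ends within 2000 bases, drawn to scale with the horizontal axis in bases from the 5′ end of the non-coding RNA and clipped at the frame. NIPBL-DT and NIPBL start 59 bases apart without overlap, while TIPARP reaches 1143 bases into TIPARP-AS1.

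Promoter windows from RefSeq (build GRCh38.p14, 250 bases before to 50 after a start) were found for 14 of the 44 RNAs and 38 of the 43 partners. Where a gene had several windows, the one nearest the start of the RNA was used, also for partners. That choice favours shared bases, and a partner window need not be the main promoter of its gene. An RNA window can also lie away from the start in the count table, by 1335 bases for TIPARP-AS1. The windows of both genes were found for 13 pairs and shared bases in 9 of these, by 292 bases for NBR2 and BRCA1, 256 for LINC00205 and POFUT2 and 174 for NIPBL-DT and NIPBL. The sequences below are those of the RNA with the highest fold and of 4 RNAs that fell, with the window of TIPARP, the partner with the largest rise. Each reads 5′ to 3′ on the strand of its gene. Capitals mark GCGTG, the core bound by the aryl hydrocarbon receptor (AhR), and CCAAT, the motif of NF-Y, and their reverse complements CACGC and ATTGG.

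NBR2 (chr17:43125307-43125606, plus strand): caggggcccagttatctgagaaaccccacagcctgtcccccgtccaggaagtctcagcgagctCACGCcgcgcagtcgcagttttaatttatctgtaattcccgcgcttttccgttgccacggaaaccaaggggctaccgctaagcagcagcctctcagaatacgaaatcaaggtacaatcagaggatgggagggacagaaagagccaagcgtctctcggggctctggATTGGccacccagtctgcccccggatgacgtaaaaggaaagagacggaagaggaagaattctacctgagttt
NIPBL-DT (chr5:36876645-36876944, minus strand): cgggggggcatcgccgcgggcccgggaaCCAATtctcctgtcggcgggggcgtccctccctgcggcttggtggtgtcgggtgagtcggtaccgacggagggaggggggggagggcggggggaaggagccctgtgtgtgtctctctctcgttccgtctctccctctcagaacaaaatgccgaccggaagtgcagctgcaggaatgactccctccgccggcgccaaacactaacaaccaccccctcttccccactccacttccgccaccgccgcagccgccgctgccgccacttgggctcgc
LINC00205 (chr21:45287802-45288101, plus strand): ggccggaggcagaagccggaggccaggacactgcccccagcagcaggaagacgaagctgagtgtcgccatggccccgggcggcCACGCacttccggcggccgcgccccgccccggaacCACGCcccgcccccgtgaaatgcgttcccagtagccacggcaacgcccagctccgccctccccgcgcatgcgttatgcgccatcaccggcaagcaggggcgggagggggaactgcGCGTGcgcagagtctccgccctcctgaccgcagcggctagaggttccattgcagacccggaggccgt
TYMSOS (chr18:658242-658541, minus strand): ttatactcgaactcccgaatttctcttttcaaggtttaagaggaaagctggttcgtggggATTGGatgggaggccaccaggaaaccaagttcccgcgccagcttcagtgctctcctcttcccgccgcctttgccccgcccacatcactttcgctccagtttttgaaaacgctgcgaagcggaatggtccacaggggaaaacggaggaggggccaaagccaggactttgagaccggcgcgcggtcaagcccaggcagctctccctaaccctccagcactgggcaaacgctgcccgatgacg
WT1-AS (chr11:32435268-32435567, plus strand): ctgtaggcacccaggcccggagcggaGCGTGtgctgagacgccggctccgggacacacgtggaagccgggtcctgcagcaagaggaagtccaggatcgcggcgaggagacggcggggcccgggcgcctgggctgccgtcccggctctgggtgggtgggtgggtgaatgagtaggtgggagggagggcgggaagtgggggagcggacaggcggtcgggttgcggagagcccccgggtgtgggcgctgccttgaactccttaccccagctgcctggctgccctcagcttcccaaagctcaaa
TIPARP (chr3:156674340-156674639, plus strand): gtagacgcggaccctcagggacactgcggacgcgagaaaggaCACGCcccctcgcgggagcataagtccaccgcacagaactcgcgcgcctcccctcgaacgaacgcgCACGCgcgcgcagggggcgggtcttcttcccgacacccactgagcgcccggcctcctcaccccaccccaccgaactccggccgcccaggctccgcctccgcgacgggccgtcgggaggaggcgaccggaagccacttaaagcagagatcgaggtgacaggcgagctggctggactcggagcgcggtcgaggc

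The median GC content was 64.3% in the 14 RNA windows and 68.2% in the 38 partner windows, beside 58.7% over all 35114 windows. CpG dinucleotides numbered a median of 23, 30.5 and 14 in these 3 sets. GCGTG on either strand stood in 7 of 14 RNA windows (50%), 28 of 38 partner windows (73.7%) and 36.5% of all windows. This motif contains a CpG, in which the 3 sets differ, and its share at equal CpG content was not tested. CCAAT stood in 50%, 39.5% and 34.6% of them. TATAAA was in none of the 14 RNA windows, 1 partner window (2.63%) and 11.5% of all. TGACNNNGC, the core of the antioxidant response element, was in 14.3%, 15.8% and 13.3%. Every motif was searched on both strands, and the GC that ends TGACNNNGC can begin a GCGTG. Windows of a pair that share bases share motifs too, so RNA and partner counts are not independent. The LINC00205 window held 3 GCGTG, the TIPARP window 2, and the NBR2 and WT1-AS windows 1 each, while the NIPBL-DT and TYMSOS windows held none.

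Libraries held 30970218 to 36878525 reads in genes. Levels are CPM, read counts scaled to library size with TMM factors, and errors are the SD over 3 libraries. CYP1A1, the AhR target most used to show exposure to combustion compounds, was at 2011 to 2181 CPM in exposed cells and 1.34 to 1.96 CPM in control cells. Of the marker lists, the 8 luminal markers summed to 7749 to 9767 CPM in exposed libraries and 18832 to 20750 CPM in control libraries. KRT8, KRT18, KRT19, ESR1, PGR and FOXA1 were lower, while GATA3 and EPCAM did not pass, at log2 fold changes of 0.04 and 0.02. The 4 basal markers summed to 81.3 to 89.1 CPM in exposed and 50.1 to 61.7 CPM in control libraries. Nearly all of that was LAMB3, at a mean of 83.6 CPM in exposed and 55.9 CPM in control cells, and KRT5, KRT14 and TP63 were too low to test. The 5 fibroblast markers summed to 69.7 to 72.7 CPM in exposed and 58.9 to 67.1 CPM in control libraries, and the 4 leukocyte markers to 1.2 to 1.62 CPM in exposed and 0.878 to 1.69 CPM in control libraries. The 3 endothelial markers summed to 0 to 0.236 CPM in exposed and 0.241 to 0.412 CPM in control libraries. No marker of these lists was at 0 in every library. The luminal, basal, fibroblast and endothelial sums did not overlap between the groups, and their part in the results below was not tested.

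The 44 RNAs together took 6200, 6364 and 7086 reads in exposed replicates 1 to 3, against 9503, 7899 and 9021 reads in control replicates 1 to 3. On the CPM scale their sum was 183, 206 and 196 in exposed cells and 255, 227 and 248 in control cells, so that the groups did not overlap. TUG1 alone held 43.5 to 50.0% of these reads. Without TUG1 the sum was 102, 103 and 105 CPM in exposed cells and 131, 129 and 131 CPM in control cells. The 43 remaining RNAs thus summed lower in each exposed library than in any control library. The most abundant RNAs weigh most in this sum, and single RNAs went either way. LINC00205 had a mean of 24.8 CPM in exposed and 33.6 CPM in control cells, while NBR2 had 11.6 CPM in exposed and 5.87 CPM in control cells. These are bulk libraries, in which fewer cells with a transcript and less of it per cell cannot be told apart.

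At the low-count filter 29 of the 44 RNAs were kept for testing. Among these, 2 were higher in exposed cells, NBR2 and AL391684.1, and 13 were lower. The other 14 did not pass the test. A gene passed at an edgeR adjusted p under 0.05, and 43.9% of all 17337 genes tested passed, 21.8% higher and 22.1% lower. The RNAs passed in 51.7%, with 6.9% higher and 44.8% lower. Their median log2 fold change was -0.44, against -0.02 over all genes tested. Long intergenic RNAs (lincRNA), the type nearest to them in level, were higher in 7.21% and lower in 20.5% of 901 genes, antisense RNAs higher in 8.33% and lower in 21.1% of 1105, and processed transcripts higher in 15.3% and lower in 24.1% of 170. The median log2 fold change was below 0 in these types too, at -0.25 in lincRNAs, -0.16 in antisense RNAs and -0.14 in processed transcripts. Protein-coding genes were higher in 25.2% and lower in 23.2%. Of the 40 partners tested, 11 were higher (27.5%) and 12 lower (30%).

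**Figure D2:**
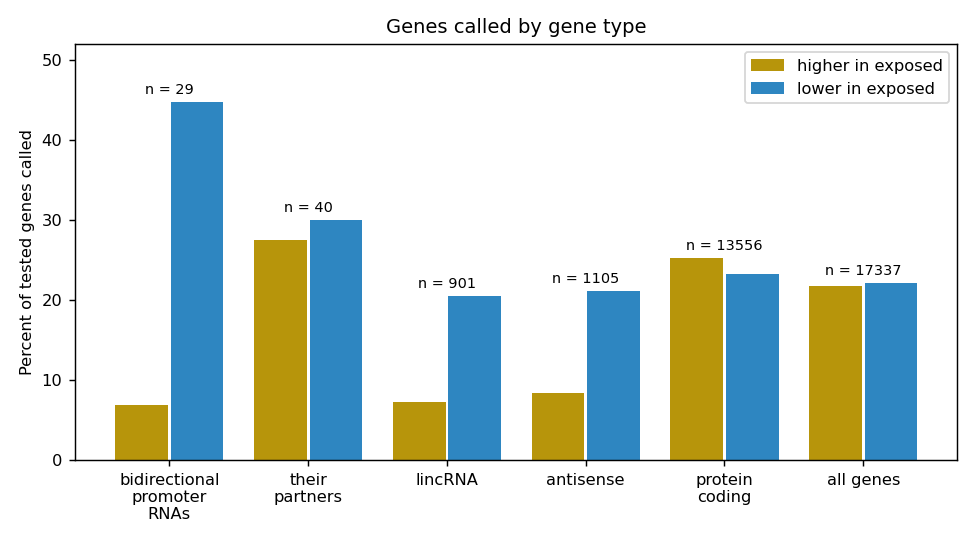
Percent of tested genes of each type called higher or lower in exposed cells at an edgeR adjusted p under 0.05, with the number tested above the bars. Bidirectional promoter RNAs were lower in 44.8% and higher in 6.9% of 29, while their partners were lower in 30% and higher in 27.5% of 40.

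The filter bears on this count. It kept genes that reached 0.282 CPM in at least 3 libraries. Of the 29 RNAs, 21 reached that level in all 6 libraries, and 9 of these were lower and 2 higher. WT1-AS, AL121612.2, PPP1R12A-AS1 and AL049796.1 reached it in the 3 control libraries and in fewer than 3 exposed ones, and all 4 were lower, a direction which their entry favours. The groups did not overlap in CPM for 16 of the 29 RNAs, 14 with exposed cells below and 2 above. Over all genes tested 51.9% did not overlap.

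**Figure D3:**
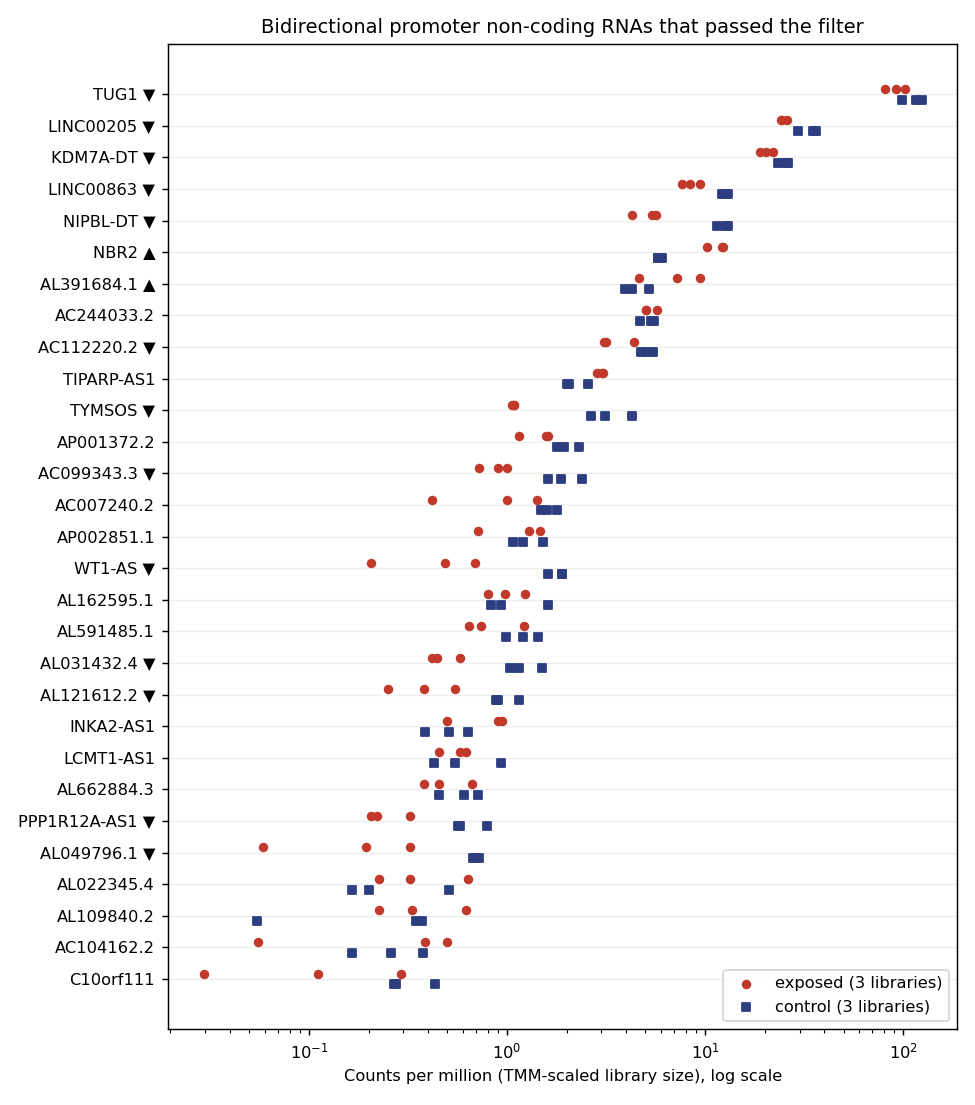
CPM of each of the 29 tested non-coding RNAs in every library on a log axis, ordered by mean level, with exposed and control libraries as separate points and triangles for the calls. TUG1 leads at 80.5 to 124 CPM, and for NIPBL-DT, TYMSOS and WT1-AS the exposed points lie apart from and below the control points.

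The lowest adjusted p-values stood beside genes of DNA repair, cohesin loading and nucleotide synthesis. NBR2 (ENSG00000198496, chromosome 17, 43125610 to 43153671, plus strand), a non-coding neighbour of BRCA1 reported to bind the energy sensor AMPK in human cells, had 12.3, 12.2 and 10.2 CPM in exposed replicates 1 to 3, against 5.79, 6.05 and 5.79 CPM in control replicates 1 to 3. Every exposed library was above every control library. NBR2 was 1.97-fold higher, at a log2 fold change of 0.98 ± 0.13 (edgeR adjusted p = 4.5e-07). BRCA1, which acts in repair of DNA breaks by homologous recombination, moved the other way, with 18.8, 22.3 and 18.9 CPM in the exposed libraries and 28.8, 26.7 and 29.8 CPM in the control libraries. Its log2 fold change was -0.51 ± 0.10 (edgeR adjusted p = 9.8e-05). The nearest transcript starts of the 2 genes are 127 bases apart, and their exons share no base. Another gene, AC135721.1, shares 158 exonic bases with NBR2.

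NIPBL-DT (ENSG00000285967, chromosome 5, 36864425 to 36876700, minus strand) starts 59 bases from NIPBL, the gene of the protein that loads cohesin onto chromosomes. It had 5.42, 4.26 and 5.66 CPM in exposed replicates 1 to 3, against 11.5, 12.8 and 13.0 CPM in control replicates 1 to 3, a mean of 5.11 ± 0.745 CPM in exposed cells and 12.5 ± 0.794 CPM in control cells (SD, n = 3 each). The groups did not overlap. Exposed cells held 0.412 of the control level, a log2 fold change of -1.28 ± 0.14 (edgeR adjusted p = 5.1e-09), and no exonic base is shared with another gene. NIPBL itself had 41.4, 49.5 and 45.3 CPM in the exposed libraries and 54.2, 43.9 and 50.3 CPM in the control libraries. Those groups overlapped, and its log2 fold change of -0.12 ± 0.09 did not pass (edgeR adjusted p = 0.29).

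TYMSOS (ENSG00000176912, chromosome 18, 641320 to 658340, minus strand) runs opposite to TYMS, which encodes thymidylate synthase. It had 1.09, 1.07 and 1.08 CPM in exposed replicates 1 to 3, against 3.14, 4.29 and 2.66 CPM in control replicates 1 to 3. The exposed libraries were nearly equal to each other and each below every control. The log2 fold change was -1.63 ± 0.25 (edgeR adjusted p = 2.6e-06). TYMS fell too, to 5.36, 4.91 and 5.60 CPM in the exposed libraries, against 6.91, 7.23 and 7.46 CPM in the control libraries, a log2 fold change of -0.44 ± 0.15 (edgeR adjusted p = 0.015). Without exposed replicate 2 or control replicate 3 the TYMS call was lost (edgeR adjusted p = 0.058 and 0.059, range over all alternatives 0.011 to 0.059). TYMSOS shares 183 exonic bases with TYMS and 192 with CLUL1, 38.4% of its exonic bases in all with any gene, so reads cannot be fully assigned.

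**Figure D4:**
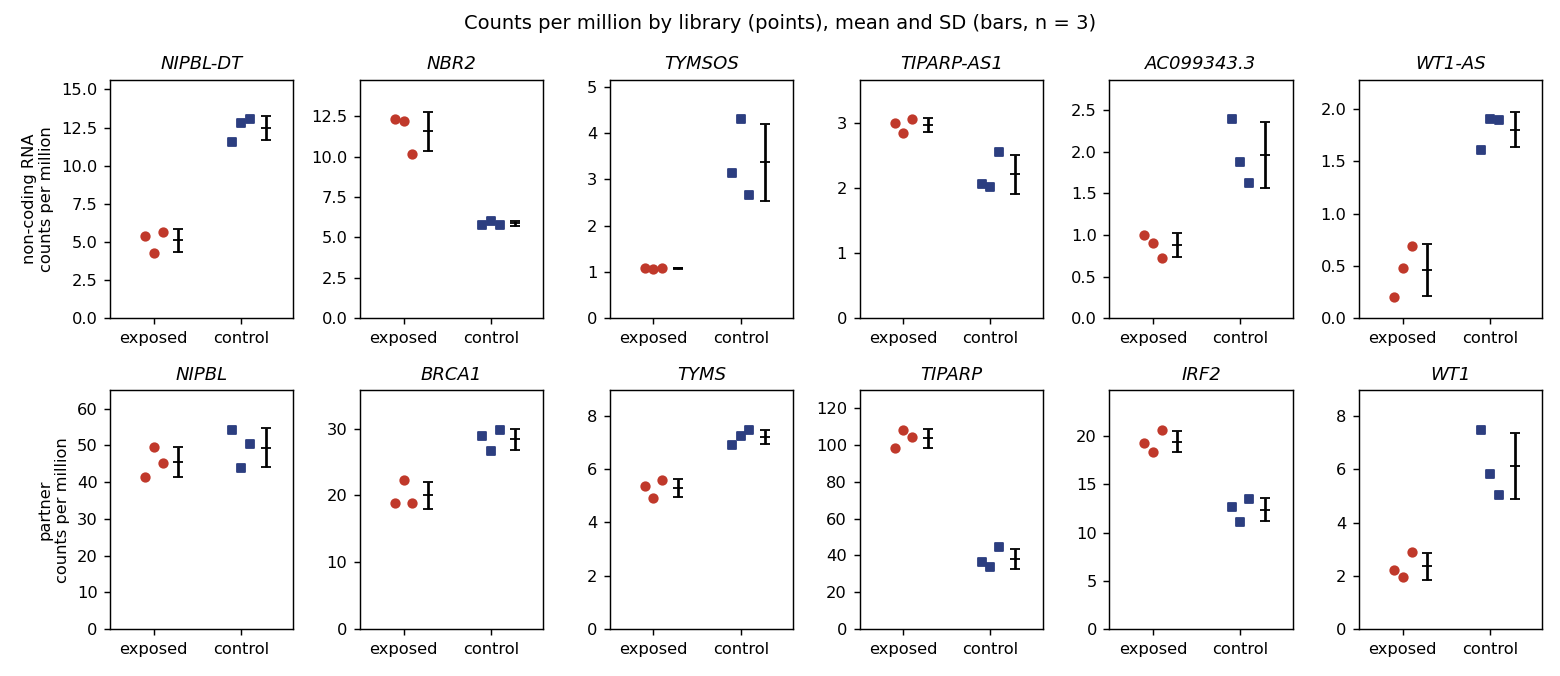
CPM in every library (points) with mean and SD (bars, n = 3) for 6 non-coding RNAs, upper row, and their partners, lower row, exposed left of control, each panel on its own axis from 0. NIPBL-DT falls to 4.26 to 5.66 CPM in exposed cells against 11.5 to 13.0 CPM in control cells, while NIPBL overlaps between groups.

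The 4 most abundant RNAs were all lower. TUG1 (ENSG00000253352, chromosome 22, 30969245 to 30979395, plus strand), a long RNA first described in the mouse retina as induced by taurine, had 80.5, 103 and 91.5 CPM in exposed replicates 1 to 3, against 124, 98.9 and 116 CPM in control replicates 1 to 3. Exposed replicate 2 lay above control replicate 2, so the groups overlapped. The log2 fold change was -0.30 ± 0.09 (edgeR adjusted p = 0.0058), and without exposed replicate 1 the call was lost (edgeR adjusted p = 0.060, range over all alternatives 1.0e-04 to 0.060). Other genes lie over 14.4% of the exonic bases of TUG1. MORC2, a chromatin ATPase that silences genes, rose to 45.8, 48.4 and 44.3 CPM in the exposed libraries, against 40.0, 33.8 and 36.7 CPM in the control libraries, a log2 fold change of 0.32 ± 0.09. LINC00205 (ENSG00000223768, chromosome 21, 45288050 to 45297806, plus strand) had 24.6, 25.8 and 24.1 CPM in the exposed libraries and 35.2, 29.5 and 36.2 CPM in the control libraries. All 3 exposed libraries were below the controls, at a log2 fold change of -0.44 ± 0.10 (edgeR adjusted p = 0.00042). Its partner POFUT2, an O-fucosyltransferase of the endoplasmic reticulum, rose by 0.48 ± 0.09 on the log2 scale.

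KDM7A-DT (ENSG00000260231, chromosome 7, 140177184 to 140179640, plus strand) stands beside KDM7A, a histone demethylase. It had 20.3, 18.9 and 22.2 CPM in the exposed libraries and 25.7, 26.3 and 23.5 CPM in the control libraries, groups that did not overlap, and a log2 fold change of -0.30 ± 0.10 (edgeR adjusted p = 0.015). Without exposed replicate 2 that call was lost (edgeR adjusted p = 0.093, range over all alternatives 0.010 to 0.093). KDM7A did not pass, at a log2 fold change of 0.16 ± 0.11. LINC00863 (ENSG00000224914, chromosome 10, 87342736 to 87357882, plus strand) had 9.45, 7.69 and 8.40 CPM in the exposed libraries and 12.8, 12.2 and 13.1 CPM in the control libraries. It was lower in every exposed library, at a log2 fold change of -0.57 ± 0.12 (edgeR adjusted p = 0.00034). The nearest opposite protein-coding gene, GLUD1 (glutamate dehydrogenase), is 247870 bases away and did not pass, at a log2 fold change of 0.16 ± 0.07.

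Beside regulators of transcription, WT1-AS (ENSG00000183242, chromosome 11, 32435518 to 32458769, plus strand) showed the largest fall of the 29. It had 0.206, 0.485 and 0.693 CPM in exposed replicates 1 to 3, against 1.61, 1.90 and 1.89 CPM in control replicates 1 to 3. Even the highest exposed library was below the lowest control by over 2-fold. The log2 fold change was -1.95 ± 0.36 (edgeR adjusted p = 4.9e-05). WT1, a zinc finger transcription factor of kidney and gonad development that is also expressed in breast tumours, fell with it, to 2.21, 1.94 and 2.91 CPM in the exposed libraries, against 7.48, 5.85 and 5.05 CPM in the control libraries. Its log2 fold change was -1.37 ± 0.20 (edgeR adjusted p = 8.0e-07). The exons of the pair share 113 bases, and 20.6% of the exonic bases of WT1-AS are shared with any gene.

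AC099343.3 (ENSG00000271646, chromosome 4, 184474802 to 184477304, plus strand) starts 222 bases from IRF2, a factor that represses interferon-responsive genes. It had 1.0, 0.905 and 0.721 CPM in the exposed libraries and 2.38, 1.87 and 1.62 CPM in the control libraries, a log2 fold change of -1.16 ± 0.29 (edgeR adjusted p = 0.0017). IRF2 rose, with 19.3, 18.4 and 20.6 CPM in the exposed libraries and 12.6, 11.1 and 13.4 CPM in the control libraries and a log2 fold change of 0.65 ± 0.11. RNA and gene each had groups that did not overlap, in opposite directions. AL121612.2, 41 bases from the homeobox gene GSC (goosecoid), had 0.383, 0.549 and 0.250 CPM in the exposed libraries and 0.884, 1.15 and 0.905 CPM in the control libraries. Its log2 fold change was -1.32 ± 0.42 (edgeR adjusted p = 0.011). The call was lost without exposed replicate 3 or control replicate 2 (edgeR adjusted p = 0.068 and 0.050, range over all alternatives 0.0075 to 0.068). GSC did not pass, at 0.03 ± 0.16. AP002851.1 beside KLF10, a TGF-beta-induced Krüppel-like factor, had a log2 fold change of -0.12 ± 0.32 and KLF10 one of 0.17 ± 0.09, and neither passed.

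TIPARP-AS1 (ENSG00000243926, chromosome 3, 156671862 to 156674378, minus strand) overlaps the 5′ end of TIPARP, an AhR target whose ADP-ribosyltransferase product represses AhR. TIPARP had 98.1, 108 and 105 CPM in exposed replicates 1 to 3, against 36.4, 33.7 and 44.4 CPM in control replicates 1 to 3. It was 2.71-fold higher, a log2 fold change of 1.44 ± 0.09 (edgeR adjusted p = 1.8e-14). TIPARP-AS1 had 3.0, 2.84 and 3.05 CPM in the exposed libraries and 2.06, 2.02 and 2.55 CPM in the control libraries. Each exposed library was above each control, yet the log2 fold change of 0.42 ± 0.21 did not pass (edgeR adjusted p = 0.11). The RNA minus partner difference changed by -1.03 ± 0.22 log2 units from control to exposed cells (limma adjusted p = 0.00063). The RefSeq start under the name TIPARP-AS1 lies 1335 bases from the start in the count table. The window around that RefSeq start holds no GCGTG. The TIPARP window printed above, which holds 2, spans the start of TIPARP-AS1 in the count table at 156674378. Both GCGTG lie upstream of that start too, so the window without GCGTG does not describe TIPARP-AS1 as counted.

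Among RNAs beside genes of metabolism, AL391684.1 (ENSG00000224934, chromosome 10, 99430919 to 99461743, plus strand) rose with GOT1, the cytosolic aspartate aminotransferase. It had 4.65, 9.43 and 7.18 CPM in exposed replicates 1 to 3, against 5.23, 4.26 and 3.92 CPM in control replicates 1 to 3. Exposed replicate 1 lay within the control range. The log2 fold change was 0.66 ± 0.19 (edgeR adjusted p = 0.0073), and without exposed replicate 2 it was not called (edgeR adjusted p = 0.086, range over all alternatives 2.9e-05 to 0.086). GOT1 had 265, 259.5 and 228 CPM in the exposed libraries and 149, 159 and 154 CPM in the control libraries, a log2 fold change of 0.70 ± 0.08 (edgeR adjusted p = 4.4e-09). Their exons share 651 bases, 9.44% of those of the RNA. GOT1 has the higher counts by far, and the part of shared bases in the rise of the RNA was not tested. AP001372.2 beside LIPT2, a lipoyltransferase, had a log2 fold change of -0.47 ± 0.26 and LIPT2 one of -0.48 ± 0.23. AL591485.1 beside SLC35B3, a sulfate donor transporter of the Golgi, had -0.47 ± 0.34 and SLC35B3 -0.24 ± 0.14 on the same scale. None of these 4 genes passed.

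Beside genes of membrane traffic, 1 of 3 RNAs passed. AC112220.2 (ENSG00000271643, chromosome 3, 33793644 to 33798539, minus strand), opposite PDCD6IP of the ESCRT pathway, had 3.09, 3.17 and 4.35 CPM in the exposed libraries and 4.77, 5.01 and 5.46 CPM in the control libraries. The groups did not overlap, and the log2 fold change was -0.52 ± 0.18 (edgeR adjusted p = 0.019). Without exposed replicate 1, exposed replicate 2 or control replicate 3 it was not called (edgeR adjusted p = 0.086, 0.074 and 0.087, range over all alternatives 0.0071 to 0.087). PDCD6IP did not pass, at -0.18 ± 0.08, and shares 145 exonic bases with the RNA. AC244033.2 beside VPS45, of vesicle fusion, had 5.01, 5.01 and 5.71 CPM in the exposed libraries and 4.72, 5.33 and 5.54 CPM in the control libraries. These groups overlapped, at a log2 fold change of 0.01 ± 0.16 (edgeR adjusted p = 0.95), and VPS45 did not pass at -0.16 ± 0.09. AL162595.1 beside RAB4A, a GTPase of endosome recycling, did not pass at -0.18 ± 0.34, while RAB4A rose by 0.22 ± 0.08 on the log2 scale (edgeR adjusted p = 0.033, range over all alternatives 0.018 to 0.099). The RAB4A call was lost with a replicate block (0.077) and without exposed replicate 1 (0.064), exposed replicate 2 (0.080) or control replicate 2 (0.099, all edgeR adjusted p).

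Beside genes of signalling, AL049796.1 (ENSG00000260464, chromosome 1, 93847174 to 93848939, plus strand) starts 24 bases from BCAR3, an adaptor protein named for antiestrogen resistance of breast cancer cells. It had 2, 10 and 7 reads in the exposed libraries and 25, 25 and 25 reads in the control libraries. The counts are few, and the log2 fold change of -1.85 ± 0.53 has a wide error (edgeR adjusted p = 0.0052). BCAR3 fell by 0.50 ± 0.10 on the log2 scale. PPP1R12A-AS1 (ENSG00000257557, chromosome 12, 79934901 to 79942712, plus strand), opposite the myosin phosphatase subunit PPP1R12A, had 0.206, 0.323 and 0.222 CPM in the exposed libraries and 0.563, 0.576 and 0.796 CPM in the control libraries. Its log2 fold change was -1.36 ± 0.49 (edgeR adjusted p = 0.024). Without exposed replicate 1, exposed replicate 3 or control replicate 3 it was not called (edgeR adjusted p = 0.082, 0.077 and 0.12, range over all alternatives 0.024 to 0.12). PPP1R12A did not pass, at 0.12 ± 0.10, and shares 406 exonic bases with the RNA.

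AC007240.2, 404 bases from the neuronal calcium sensor gene HPCAL1, had 1.41, 0.420 and 0.998 CPM in the exposed libraries and 1.80, 1.58 and 1.48 CPM in the control libraries. Exposed replicate 2 was the lowest of the 6. The log2 fold change of -0.77 ± 0.33 did not pass (edgeR adjusted p = 0.062, range over all alternatives 0.0093 to 0.31), although the groups did not overlap. It passed without exposed replicate 1, at an edgeR adjusted p of 0.0093, and in 3 other alternatives. HPCAL1 rose by 0.77 ± 0.09 on the log2 scale. LCMT1-AS1 beside LCMT1, the methyltransferase of protein phosphatase 2A, had a log2 fold change of -0.20 ± 0.43 and LCMT1 one of 0.11 ± 0.08. Neither passed.

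Beside genes of RNA metabolism, AL031432.4 (ENSG00000284602, chromosome 1, 25232586 to 25234775, plus strand) starts 84 bases from SYF2, a splicing factor. It had 0.442, 0.420 and 0.582 CPM in the exposed libraries and 1.15, 1.04 and 1.51 CPM in the control libraries. Each exposed library was below each control, at a log2 fold change of -1.35 ± 0.38 (edgeR adjusted p = 0.0043). SYF2 rose by 0.51 ± 0.09 on the log2 scale. AL109840.2 beside NELFCD, a subunit of the complex that pauses RNA polymerase II, had a log2 fold change of 0.60 ± 0.59, while NELFCD fell by 0.39 ± 0.07. AC104162.2 beside THOC7, of the THO export complex, had 0.22 ± 0.62, while THOC7 fell by 0.30 ± 0.11. C10orf111 beside RPP38, a protein of RNase P, had -1.19 ± 0.67, and RPP38 0.16 ± 0.14. AL109840.2, AC104162.2, C10orf111 and RPP38 did not pass. The THOC7 call was lost without exposed replicate 1, exposed replicate 2 or control replicate 3 (edgeR adjusted p = 0.057, 0.10 and 0.19, range over all alternatives 0.0081 to 0.19).

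The remaining tested RNAs did not pass either. AL022345.4 beside the zinc finger gene ZNF33B had a log2 fold change of 0.44 ± 0.56, and ZNF33B one of 0.11 ± 0.11. INKA2-AS1 had 0.61 ± 0.42, and its partner by the rule, AL049557.1, had no reads. AL049557.2 shares exonic bases with INKA2-AS1, 77.2% of whose exonic bases lie over other genes. AL662884.3 had -0.23 ± 0.44, and its partner PPT2-EGFL8 was too low to test.

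RNA and partner were both tested in 27 pairs. In 9 pairs both were called. TYMSOS and TYMS, WT1-AS and WT1, and AL049796.1 and BCAR3 were both lower, and AL391684.1 and GOT1 both higher. In the 5 other pairs the calls were opposite. TUG1, LINC00205, AC099343.3 and AL031432.4 were lower while MORC2, POFUT2, IRF2 and SYF2 were higher, and NBR2 was higher while BRCA1 was lower. Exons share bases in 3 of the 4 pairs that moved together (TYMSOS, WT1-AS and AL391684.1) and in none of the 5 opposite pairs. In 6 pairs the RNA alone was called, in 5 the partner alone, and in 7 neither. The signs of the log2 fold changes were the same in 10 of 27 pairs (37%). For antisense RNAs and the nearest tested opposite protein-coding gene that share was 57.0% of 1105 pairs, and for lincRNAs 51.9% of 901. These shares were not tested against each other. Over the 27 pairs the log2 fold changes of RNA and partner had a Pearson correlation of 0.27 and a Spearman correlation of 0.14. The Pearson correlation was 0.30 for antisense RNAs, 0.04 for lincRNAs and 0.11 for protein-coding genes.

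**Figure D5:**
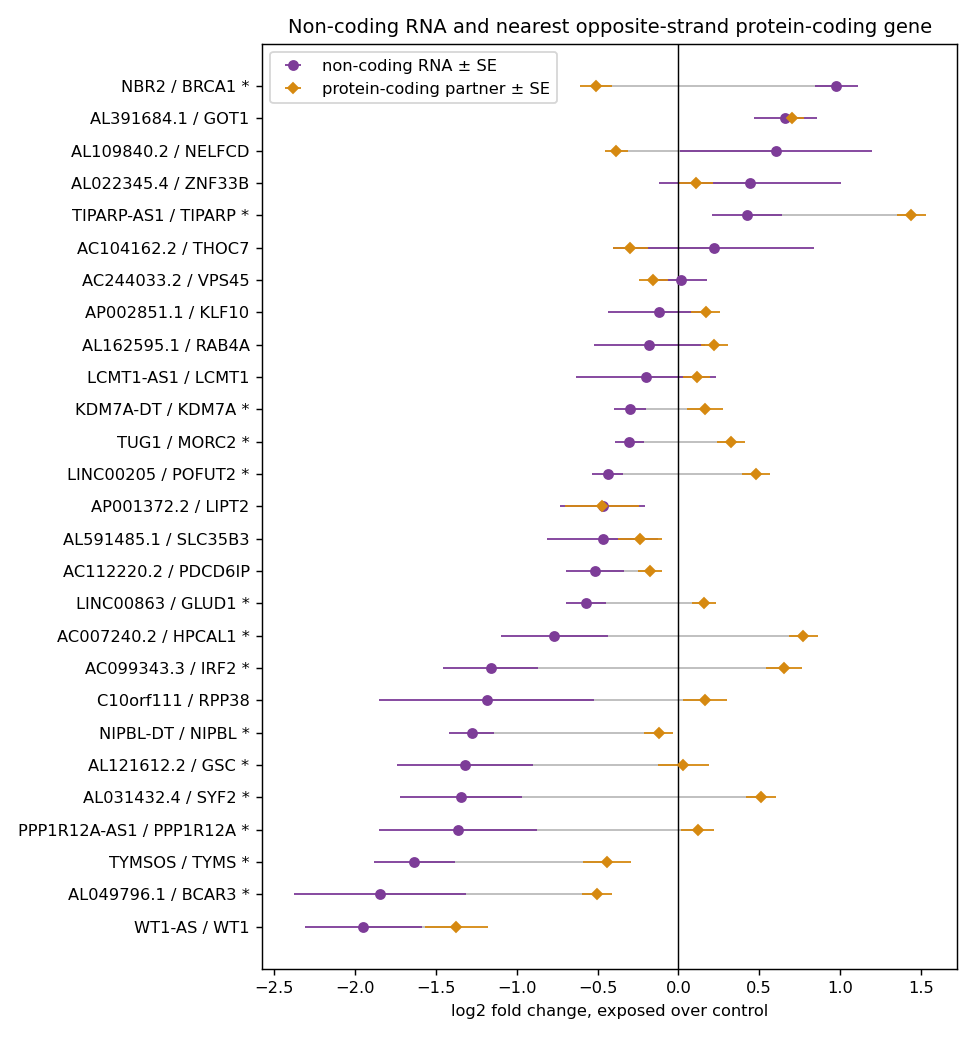
log2 fold change, exposed over control, of each tested non-coding RNA and of its partner, joined by a line, for the 27 pairs with both tested, with bars for the SE and an asterisk where the pair difference passed (limma adjusted p under 0.05). NIPBL-DT lies at -1.28 with NIPBL at -0.12, and TIPARP at 1.44 with TIPARP-AS1 at 0.42.

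The difference within a pair was tested on log2 CPM of the RNA minus that of its partner in each library, with limma over 17327 such pairs of all gene types. The test asked whether that difference changed between exposed and control cells, so the values here are changes and not levels. This change passed in 45.9% of those pairs. By type it passed in 27.9% of antisense, 32.7% of lincRNA and 50.3% of protein-coding genes. Among the 27 pairs it passed in 14, with the RNA rising relative to its partner for NBR2 and falling relative to it for 13. The NBR2 change was 1.48 ± 0.15 log2 units (limma adjusted p = 5.0e-08). The most negative were AC099343.3 at -1.76 ± 0.30 and AL031432.4 at -1.76 ± 0.35 (limma adjusted p = 5.5e-05 and 0.00025). NIPBL-DT stood at -1.16 ± 0.17 against NIPBL (limma adjusted p = 1.1e-05), LINC00205 at -0.91 ± 0.11 against POFUT2 and LINC00863 at -0.73 ± 0.14 against GLUD1. AC007240.2, which did not pass alone, stood at -1.66 ± 0.36 against HPCAL1 (limma adjusted p = 0.00060). TUG1 was at -0.63 ± 0.10 against MORC2 and KDM7A-DT at -0.48 ± 0.13 against KDM7A, and these passed too. TYMSOS fell by more than TYMS, at -1.12 ± 0.26 (limma adjusted p = 0.0013). For WT1-AS against WT1 the difference was -0.60 ± 0.38 (limma adjusted p = 0.20), and for AL391684.1 against GOT1 -0.09 ± 0.23 (limma adjusted p = 0.78), and neither passed. AL049796.1 passed against BCAR3 at -1.24 ± 0.50 (limma adjusted p = 0.048), which 6 of 8 alternatives did not keep. AL121612.2 was lost in 1 and PPP1R12A-AS1 in 3 of them.

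Per length, partners were the more abundant genes. The partner had more CPM per kilobase of gene length for 38 of the 44 RNAs. The median ratio of partner to RNA over all 44 was 11.5. TUG1 was an exception at 10.1 CPM per kilobase, against 6.63 for MORC2. KDM7A-DT had 9.28 CPM per kilobase, against 3.20 for KDM7A, and NBR2 had 4.16, against 2.64 for BRCA1. These are levels over all 6 libraries.

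The 15 RNAs not tested had 14 to 46 reads in all and 0 to 16 in any library. The highest by total were AL445253.1 and LIMD1-AS1 with 46 reads each and AL049557.2 with 40. Together the 15 summed to 1.91, 1.87 and 1.41 CPM in exposed replicates 1 to 3, against 2.63, 2.74 and 2.30 CPM in control replicates 1 to 3. Differences in single RNAs of this set are not detectable at this depth. FO393414.3 had 2, 4 and 4 reads in the exposed libraries and 10, 9 and 8 reads in the control libraries. Its partner KCNQ5, a voltage-gated potassium channel, was lower, at a log2 fold change of -1.59 ± 0.22. The exons of this pair share 282 bases, so reads cannot be fully assigned, and the pair was picked out after its values were seen. Groups also did not overlap in CPM for the untested AL445253.1 and AL355490.1, with exposed cells below, and LIMD1-AS1, with exposed cells above. Of the other partners of the 15 untested RNAs, WNT4, FGFR1OP, TTC32, AFAP1L1 and MALT1 were lower. SNX16 (0.92 ± 0.11), CTBS (0.80 ± 0.22) and FEZ1 (0.27 ± 0.10) were higher. The 5′ end of AFAP1L1 is 73462 bases from that of its RNA, AC131025.3. Several of these partner calls did not hold in every alternative. Without exposed replicate 1 the calls of FGFR1OP and FEZ1 were lost (edgeR adjusted p = 0.13 and 0.059), and without exposed replicate 2 those of WNT4, AFAP1L1 and FEZ1 (0.10, 0.091 and 0.088). Without control replicate 1 those of FGFR1OP, TTC32 and FEZ1 were lost (edgeR adjusted p = 0.11, 0.11 and 0.10). Without control replicate 2 WNT4 was lost (0.24), without control replicate 3 AFAP1L1 (0.051), and with a replicate block FEZ1 (0.059, all edgeR adjusted p). MALT1, KCNQ5, SNX16 and CTBS kept their calls in all 12 alternatives.

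Genes that bear on the ending, processing and decay of upstream transcripts were read beside these RNAs as a list of 52, all tested. The list mixes roles, since U1 snRNP masks poly(A) signals while other members end or degrade transcripts. In exposed cells 8 were higher and 18 lower, 15.4% and 34.6% of the list, against 21.8% and 22.1% of all genes tested. The median log2 fold change was -0.11, against -0.02 over all genes tested. Of 15 genes of the nuclear exosome and its cofactors 3 were higher and 5 lower, and of 9 adaptors 2 and 3. Of 11 genes of 3′ end processing and termination 1 was higher and 6 lower, and of 14 Integrator subunits 1 and 4. Of 3 U1 snRNP proteins 1 was higher. EXOSC8, a core subunit of the exosome, had the largest rise at 0.67 ± 0.11 on the log2 scale, with 20.9, 21.5 and 23.8 CPM in the exposed libraries and 15.9, 13.4 and 12.3 CPM in the control libraries. ZC3H3, which takes part in polyadenylation and export, rose by 0.56 ± 0.08, ZCCHC8 of the nuclear exosome targeting complex by 0.45 ± 0.10 and the Integrator subunit INTS10 by 0.36 ± 0.09. SRRT (ARS2), which links the cap-binding complex to exosome adaptors, fell the most, at -0.93 ± 0.08, with 62.6, 57.3 and 61.6 CPM in the exposed libraries and 108, 125 and 112 CPM in the control libraries. The exosome cofactor MPHOSPH6 followed at -0.93 ± 0.11, then the cleavage stimulation subunit CSTF3 at -0.75 ± 0.10 and the cap-binding protein NCBP1 at -0.54 ± 0.11. Members of the same machinery thus passed in both directions.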

How the data were processed

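RNA of 3 exposed and 3 control T47D libraries was extracted with TRIzol, prepared with a NEBNext Ultra kit and sequenced on a NovaSeq, per the labels' protocols. The authors deposited whole-number read counts per gene, with gene length, coordinates and type. Per the submitters' processing notes, the build is GRCh38. The aligner, counter, annotation release and strand setting are not given in the labels or files. All 58735 genes had the same coordinates, strand and type in GENCODE 29, whose transcripts gave exon overlaps and starts. Groups and replicate numbers come from the sample titles. The design text calls the replicates biological without naming separate cultures, so p-values measure only the spread between these samples, which may be technical. Replicates differed by more than sampling noise, with chi-square over degrees of freedom of 7.11 to 14.9 between them.

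The main test was edgeR 4.0.16 under R 4.3.3 (filterByExpr, TMM factors 0.948 to 1.04, robust quasi-likelihood fit, Benjamini-Hochberg adjustment over 17337 genes, threshold 0.05). Fold changes are exposed over control and ± after them is a standard error. Pair differences used limma 3.58.1 on log2 CPM over 17327 pairs. DESeq2 1.42.0 and limma-voom were alternatives, and fits were run on simulated data. Far fewer genes were changed there than the 7610 called here, so the simulation does not check the fits under so broad a change. Totals of 30970218 to 36878525 counts limit genes under about 100 reads, which 21 of the 44 RNAs are.

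The members, lists and tests were chosen with earlier results of these data known. Every tested RNA is named, with values per library for those called and for the 8 highest in mean CPM, and of the decay list the 4 largest rises and falls among calls.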

Additional observations from a re-analysis of the deposited data

How the results depend on the processing

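Of the 29 tested RNAs, 2 were higher and 13 lower in exposed cells, and the counts were the same with RLE size factors, with DESeq2 and with no low-count filter, under which all 44 were tested. With at least 1 CPM in 3 libraries they were 2 and 11, and with limma-voom 2 and 14. Leaving out each library in turn gave 1 to 2 higher and 11 to 13 lower. The count of 1 higher, and 2 pairs called in the same direction in place of 4, came without exposed replicate 2. Over these fits partners were higher in 9 to 11 and lower in 8 to 13, and pairs had the same call in 2 to 5 and opposite calls in 5 to 6. The decay list was higher in 7 to 10 and lower in 13 to 20. The pair difference passed as a rise in 1 and as a fall in 10 to 14. Keeping only head-to-head partners within 2000 bases leaves fewer pairs by construction, with 6 partners higher and 4 lower and 1 pair called in the same direction. In that set TUG1, LINC00205, AC099343.3 and AL031432.4 were called opposite to their partners. Same-numbered replicates did not deviate together (correlations -0.074, -0.080 and 0.0055). The labels do not say whether a number marks a shared culture or day, and 3 such correlations cannot exclude it. With a replicate block, 2 RNAs were higher and 14 lower, and the pair difference passed as a rise in 1 and as a fall in 12. No called RNA or partner changed sign among the alternatives run. The log2 fold changes of 6 RNAs that did not pass (AC244033.2, AP002851.1, AL162595.1, LCMT1-AS1, AL022345.4 and AC104162.2) and of 4 such partners (GSC, SACM1L, DDX20 and FRAT2) crossed 0. Over single genes, 777 values stayed on their side of the threshold, 31 lost the call and 9 gained it. Depth limits the 15 untested RNAs. Bases shared with other genes limit TYMSOS (38.4%), WT1-AS (20.6%), TUG1 (14.4%), PPP1R12A-AS1 (12.55%), NBR2 (10.5%) and AL391684.1 (9.44% of exonic bases). The other called RNAs share less or nothing. Whether culture differences add to the spread cannot be told from these libraries.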
